A study of Mus musculus with 32 samples.

Results

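Tumour cells from PDGF-driven mouse gliomas labelled Rebound (5 libraries) were set against cells of the same sort from gliomas labelled Endpoint (6 libraries), across all genes. The labels gave each library its sorted cell type and its stage, and these 11 libraries, each from a different mouse, are 11 of the 32 in the series. All 11 mice were XFM mice injected in the brain at 5 to 6 weeks of age with DF-1:PDGFB cells, a chicken fibroblast line made to supply the growth factor PDGF-B. Enrolment was at a tumour volume of 20 to 40 mm3, and dosing was daily until symptoms or 26 weeks of age. The labels name the CSF-1R inhibitor BLZ945 as the agent of both groups but also of the Vehicle mice, so that this label alone does not tell treated from untreated mice; the design text places Endpoint and Rebound tumours after BLZ945. The labels call the Endpoint tumours dormant and do not define Rebound, a word for tumours that grow back under treatment. After papain dissociation, cells with PDGFRA on their surface were sorted as tumour cells (TC). The other sort, of Cd11b+ Gr1- macrophages (TAM), and the mice labelled Vehicle serve here only to class genes.

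Gliomas driven by PDGF resemble oligodendrocyte progenitors, the dividing cells of the brain that carry the PDGF receptor PDGFRA and the transcription factors Olig1, Olig2 and Sox10. CSF-1R is the receptor that macrophages and microglia need for survival, so its inhibition acts first on these neighbours of the tumour cell. IGF1, a growth factor that macrophages among other cells make, signals through its receptor IGF1R to PI3K, and the study's title places this loop in resistance to CSF-1R inhibition.

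The Rebound libraries held 10501264 to 16460126 counts and the Endpoint libraries 4180176 to 14029216. Every count was even, so that, if both mates of each fragment were counted, the fragments number these totals divided by 2. Genes with a count numbered 15322 to 16060 in Rebound and 14605 to 15805 in Endpoint libraries, and the ribosomal precursor Rn45s took 5.15 to 7.15% of the Rebound counts and 6.35 to 7.80% of the counts of 5 Endpoint libraries. Endpoint 49843 had 16.9%, together with the lowest total, 4180176 counts, and its part in the results was not tested beyond leaving it out. Levels below are CPM, counts scaled to a common library total with TMM factors, and Rebound values are listed in the order of mice 49041, 49059, 49692, 49827 and 49849. A list level is the mean over a list's genes of log2(CPM + 1).

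Markers of the sorted cell were high in every Rebound library and in 1 Endpoint library. The level of 12 tumour cell and oligodendrocyte progenitor markers was 7.29 to 8.92 in Rebound and 4.20 to 7.47 in Endpoint libraries. Endpoint 49843 stood apart at 7.47, inside the Rebound range, while the other 5 Endpoint libraries lay between 4.20 and 4.69. Markers of other cells were present in both groups, although the sort was for PDGFRA. Myeloid markers were at 2.45 to 6.99 in Rebound and at 6.81 to 9.42 in Endpoint libraries, with the highest level again in Endpoint 49843. T and NK cell markers were at 8.28 to 8.88 in Endpoint 49823, 49825, 49830 and 49831 but at 1.93 and 0.968 in Endpoint 49843 and 49845. Rebound 49827 stood apart from the other Rebound libraries: it had 8.17 for T and NK cells, against 0.483 to 1.61 in the others, and 6.99 for myeloid cells, against 2.45 to 3.25, beside the lowest Rebound tumour cell level, 7.29. Choroid plexus and ependyma markers were at 0.322 to 2.78 in Rebound and at 4.37 to 8.07 in Endpoint libraries, highest in Endpoint 49845. Of the marker lists, no gene of the tumour cell, myeloid, choroid plexus, T and NK cell or astrocyte lists was at 0 in all libraries of either group. In such bulk libraries, fewer cells of a type and less RNA per cell of that type cannot be told apart.

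**Figure D1:**
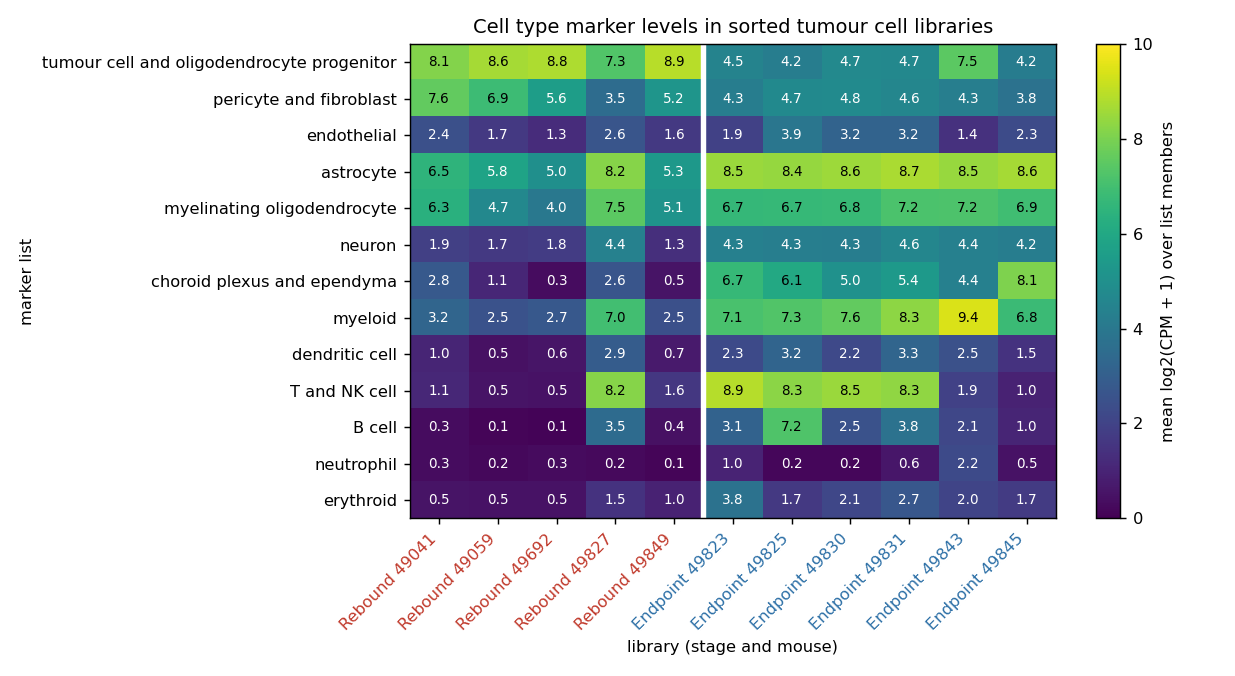
Mean log2(CPM + 1) of 13 cell type marker lists (rows) in each library (columns; Rebound left, Endpoint right). The tumour cell list lies at 7.29 to 8.92 in Rebound and at 4.20 to 7.47 in Endpoint libraries; Rebound 49827 carries T and NK cell markers at 8.17 and Endpoint 49843 carries tumour cell markers at 7.47.

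Across 14365 genes tested with edgeR's quasi-likelihood test, 3469 (24.1%) passed a Benjamini-Hochberg adjusted p of 0.05. Of all genes tested, 1905 (13.3%) were higher and 1564 (10.9%) lower in Rebound, 1529 and 1317 of them by more than 2-fold. The CPM of the groups did not overlap for 1903 genes (13.2%): for 7.07% every Rebound library was above every Endpoint library, and for 6.18% below. The median log2 fold change over all genes was 0.0134. Single libraries weighed on these counts: 2081 genes passed without Rebound 49059, 1977 without Rebound 49692, 2047 without Rebound 49849 and 5464 without Rebound 49827. With both Rebound 49827 and Endpoint 49843 left out, 6226 of 14565 passed, 3005 higher and 3221 lower. Without the 5 libraries that carried T and NK cell markers, which leaves 4 Rebound and 2 Endpoint libraries, 2052 of 14750 passed. Of these, 767 were higher and 1285 lower. These 2 sets were chosen after the marker levels were seen. List counts given below for these sets are to be read beside these numbers of all genes. Scaling on library size alone moved the median of all genes to 0.285 and gave 2951 higher and 1129 lower calls (72.3% higher, against 54.9% with TMM). RLE scaling gave 1714 higher and 1743 lower (49.6% higher) and upper quartile scaling 1680 and 1631 (50.7% higher), so that the excess of higher calls depends on the scaling. Directions are given with TMM scaling; under a scaling on tumour cell markers, described last, the medians of the 24 lists plotted were all negative.

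Genes were also classed by the mice labelled Vehicle, which are in neither group compared. With a minimum of 5 CPM, 2015 tested genes were at least 4-fold higher in the vehicle tumour cell sort than in the vehicle macrophage sort (tumour cell class), and 1600 were at least 4-fold lower (macrophage class). The tumour cell class was set only against macrophages, so it can hold genes of other cells in the PDGFRA sort. Of the tumour cell class, 774 (38.4%) rose and 149 (7.39%) fell in Rebound. Of the macrophage class, 28 (1.75%) rose and 371 (23.2%) fell. The tumour cell class thus made up 40.6% of the genes that rose but 14% of those tested, and the macrophage class 23.7% of the genes that fell but 11.1% of those tested.

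The genes with the smallest p-values among those that rose had differing roles. Rab31, a small GTPase of vesicle transport at chromosome 17, 65651729 to 65772752 (GENCODE M21, GRCm38), had 1308, 1113, 1209, 775 and 1039 CPM in the Rebound libraries, and between 137 and 322 CPM with a median of 168 CPM in the Endpoint libraries. It rose with a log2 fold change of 2.51 (with SE 0.25 and edgeR adjusted p = 0.00127). Nfia, a transcription factor of glial development at chromosome 4, 97772734 to 98118874, had 840.3, 734, 776, 470.5 and 715 CPM in Rebound, and between 177 and 240.4 CPM with a median of 206 CPM in Endpoint libraries (log2 fold change 1.74 with SE 0.18 and edgeR adjusted p = 0.00146). In both genes Rebound 49827 was the lowest Rebound library and still lay above every Endpoint library. For Adam22, a neural membrane protein that binds the synaptic protein LGI1, the values were 294, 201, 251, 103 and 176 CPM in Rebound, and between 20.8 and 45.1 CPM with a median of 29.8 CPM in Endpoint, again without overlap (log2 fold change 2.76 with SE 0.30 and edgeR adjusted p = 0.00157). Next by p came Lphn3, an adhesion receptor of synapses (log2 fold change 3.43, edgeR adjusted p = 0.00158), Ado, a thiol dioxygenase (log2 fold change 1.93, edgeR adjusted p = 0.00159), and Nxph1, a secreted ligand of neurexins (log2 fold change 4.07, edgeR adjusted p = 0.00193).

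By size of change, the list was led by Lpo, lactoperoxidase, at chromosome 11, 87806428 to 87828289. Its level was 193, 31.1, 105, 32.6 and 437 CPM in Rebound, and between 0 and 1.10 CPM with a median of 0.344 CPM in Endpoint libraries (log2 fold change 8.54 with SE 1.08 and edgeR adjusted p = 0.00231). Lpo thus varied widely within Rebound and stayed near 0 in Endpoint libraries. Rasl11a, a Ras-like GTPase, was spread as widely, at 4.24, 411, 47, 2.45 and 97.5 CPM in Rebound, against 0.384 to 1.83 CPM in Endpoint libraries (log2 fold change 6.52 with SE 1.24 and edgeR adjusted p = 0.00665). Tnc, the matrix protein tenascin-C, had 499, 558, 194, 41 and 412 CPM in Rebound, and between 0 and 25.6 CPM with a median of 1.92 CPM in Endpoint libraries (log2 fold change 5.97 with SE 1.34 and edgeR adjusted p = 0.0116), where Endpoint 49843 was the highest. Slitrk2, a synaptic adhesion protein, had 548, 288, 498, 74.3 and 335 CPM in Rebound, and between 6.96 and 41 CPM with a median of 11.5 CPM in Endpoint libraries (log2 fold change 4.37 with SE 0.62 and edgeR adjusted p = 0.00237). Also among the 12 largest increases with groups that did not overlap were Megf6, Rtkn2, Peg12, 4833424O15Rik and Cacng5, with log2 fold changes of 4.88, 4.71, 4.55, 4.38 and 4.37. Megf6 lost its call without Rebound 49692 (edgeR adjusted p = 0.0239 with all libraries), and the other 4 kept theirs whichever library was left out.

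Hoxa2, a patterning gene of the hindbrain, had 0 counts in all 6 Endpoint libraries and was chosen after its values were seen. It had 2.44, 3.77, 10.7, 3.15 and 9.87 CPM in Rebound. Its mean of 5.99 CPM was 107-fold a floor of 3 counts over the Endpoint group (0.056 CPM, without TMM factors). If both mates were counted, this floor stands for fewer than 3 fragments, so that the ratio depends on the floor and is not a lower bound.

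**Figure D2:**
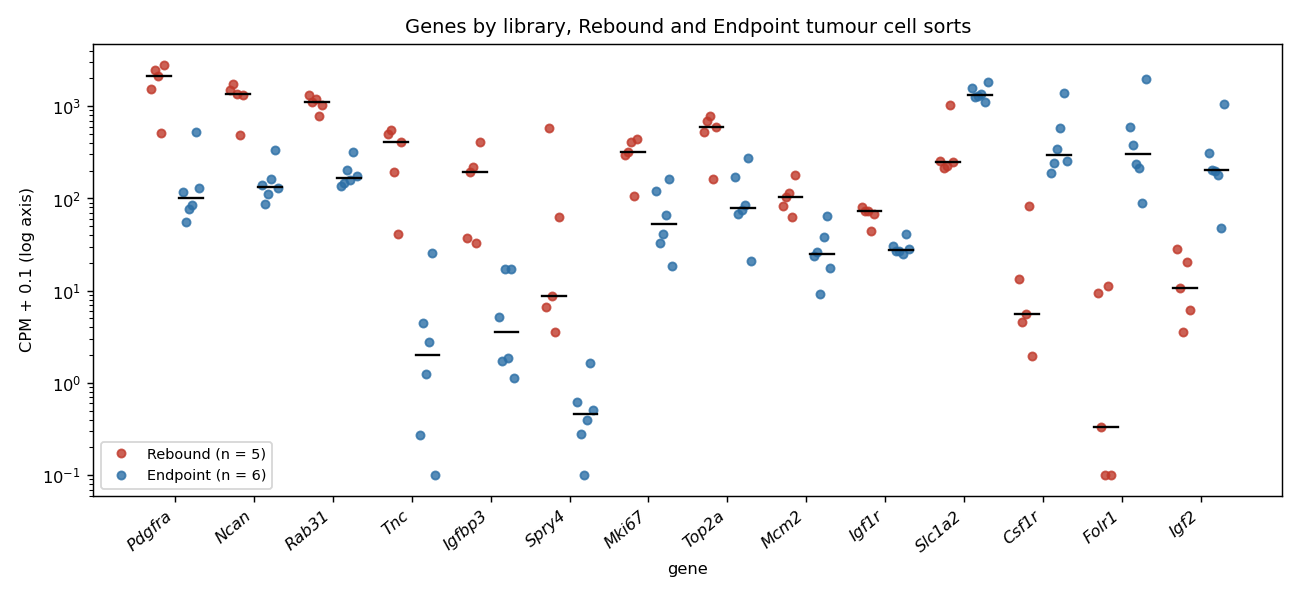
CPM plus 0.1 on a log axis for 14 named genes in each of the 5 Rebound (left, red) and 6 Endpoint (right, blue) libraries; black bars are medians. Rab31, Tnc and Igf1r are higher in every Rebound library than in any Endpoint library, and Folr1, Csf1r and Igf2 are lower; Mki67, Top2a and Pdgfra overlap through Rebound 49827 and Endpoint 49843.

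The tumour lineage genes rose, with the sorted antigen among them: 9 of 12 markers passed and none fell, with a median log2 fold change of 2.98. Pdgfra, the receptor used for the sort, at chromosome 5, 75152292 to 75198215, had 1525, 2475, 2113, 509 and 2831 CPM in Rebound libraries. In Endpoint libraries it lay between 56 and 532 CPM with a median of 101 CPM, and the maximum, in Endpoint 49843, was above Rebound 49827. Pdgfra rose with a log2 fold change of 3.51 (with SE 0.65 and edgeR adjusted p = 0.00579), and by 4.59 (edgeR adjusted p = 9.23e-06) without these 2 libraries. Ncan, the proteoglycan neurocan, had 1514, 1759, 1345, 493 and 1330.1 CPM in Rebound, and between 86.8 and 336 CPM with a median of 134 CPM in Endpoint libraries, with no overlap (log2 fold change 3.0 with SE 0.40 and edgeR adjusted p = 0.00233). Bcan (brevican) and Ptprz1, a receptor phosphatase of progenitors, rose by 2.15 and 2.96 on the log2 scale. The transcription factor Olig2 had 35.7, 109, 64.7, 11.2 and 136 CPM in Rebound, and between 0 and 30.8 CPM with a median of 1.71 CPM in Endpoint, and did not pass (log2 fold change 3.58 with SE 1.21 and edgeR adjusted p = 0.0513). It passed without Rebound 49827 or Endpoint 49843, without both (log2 fold change 6.05, edgeR adjusted p = 2.19e-04) and under library size scaling. Without the 5 libraries with T cell markers, 3 of the 12 markers rose, against 767 of all 14750 genes.

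Of 29 further genes of progenitors and neural stem cells, 12 rose and 1 fell, with a median of 2.06. Sox11, a transcription factor of immature neural cells, had 262, 513, 552, 142 and 502 CPM in Rebound, and between 18.9 and 97.4 CPM with a median of 22.7 CPM in Endpoint libraries, with no overlap (log2 fold change 3.42 with SE 0.53 and edgeR adjusted p = 0.00306). Zeb1, a repressor of epithelial genes, and Megf11, a membrane protein with EGF repeats, did not overlap between groups either, with log2 fold changes of 1.88 and 3.39. The member that fell was Id1, a BMP-induced inhibitor of differentiation factors, with 14.8, 4.24, 2.36, 8.06 and 4.12 CPM in Rebound, and between 22.6 and 131 CPM with a median of 71.3 CPM in Endpoint libraries (log2 fold change -3.56 with SE 0.58 and edgeR adjusted p = 0.00393). Egfr, another growth factor receptor of progenitors, was at 3.50 to 38.5 CPM in Rebound and at 19 to 75.7 CPM in Endpoint and did not pass (edgeR adjusted p = 0.147). Without Endpoint 49843, 19 members rose and 2 fell, without Rebound 49041, 9 rose and 3 fell, and without Rebound 49827, 13 rose and 2 fell. Without the 5 libraries with T cell markers, 1 rose and 1 fell, against 767 and 1285 of all 14750 genes.

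Oligodendrocyte progenitors receive synaptic input through glutamate receptors. Of 22 genes of glutamate receptors and synaptic adhesion, 15 rose and 1 fell in Rebound, the adhesion gene Cntnap2 (log2 fold change -3.45, edgeR adjusted p = 0.0425), with a median of 2.38. Gria4, an AMPA receptor subunit, had 275, 290.3, 309, 105 and 191 CPM in Rebound, and between 6.61 and 47.7 CPM with a median of 12 CPM in Endpoint libraries (log2 fold change 3.79 with SE 0.52 and edgeR adjusted p = 0.00233). Nlgn3, a postsynaptic adhesion protein, had 407, 427, 366, 71.3 and 453 CPM in Rebound, and between 8.94 and 52.8 CPM with a median of 19.8 CPM in Endpoint libraries (log2 fold change 3.83 with SE 0.57 and edgeR adjusted p = 0.00272). Its presynaptic partner Nrxn3 rose by 2.75 on the log2 scale, and none of these 3 genes overlapped between groups. The number that rose was 13 to 15 whichever library was left out. It was 4 without the 5 libraries with T cell markers, where 767 of all 14750 genes rose. The number that fell was 4 without Rebound 49827 and 0 without Rebound 49059, 49692 or 49849 or any 1 Endpoint library other than 49843. Neuron markers had 1 of 9 members lower (11.1%, near the 10.9% of all genes), Snap25, a protein of synaptic vesicle release (log2 fold change -1.83, edgeR adjusted p = 0.0142). The neuron list level was 1.33 to 4.39 in Rebound and 4.25 to 4.58 in Endpoint libraries.

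The list of PDGF genes and of genes that ERK signalling induces, some of which limit it, had 11 of 20 members higher and 1 lower, with a median of 1.99. Pdgfrb, Ccnd1 and Egr1 are among the 11 and are also counted in other lists below. The member that fell was Pdgfc, a PDGF ligand (log2 fold change -2.08, edgeR adjusted p = 0.0349), which kept its call in 5 of the 11 fits that left out a library. Spry4, an inhibitor of receptor tyrosine kinase signalling, had 6.55, 581, 8.69, 3.50 and 62.8 CPM in Rebound, and between 0 and 1.54 CPM with a median of 0.356 CPM in Endpoint libraries. Rebound 49059 set its size: the log2 fold change was 8.19 with an SE of 1.59 (edgeR adjusted p = 0.00698) with all libraries and 5.45 without Rebound 49059. The same library was the highest for Spry1, with 20.9, 181, 21.7, 3.85 and 62.8 CPM in Rebound, against 1.28 to 7.69 CPM in Endpoint libraries (log2 fold change 4.20 with SE 0.88 and edgeR adjusted p = 0.00897). It was also the highest for Phlda1, an inhibitor of AKT signalling, at 34.2, 237, 47.8, 7.01 and 81.7 CPM in Rebound, against 2.48 to 10.4 CPM in Endpoint libraries (log2 fold change 3.92 with SE 0.75 and edgeR adjusted p = 0.0065). Etv1, a transcription factor downstream of ERK, was more even, at 90.04, 87.3, 109.8, 51.5 and 102 CPM in Rebound, and between 14 and 57.9 CPM with a median of 19.5 CPM in Endpoint libraries (log2 fold change 1.81 with SE 0.36 and edgeR adjusted p = 0.00753). Pdgfb, the gene of the ligand used to start the tumours, had 17.5, 40.4, 25.8, 11.2 and 24.5 CPM in Rebound, and between 7.69 and 26.9 CPM with a median of 11.4 CPM in Endpoint libraries, and did not pass (log2 fold change 0.74 with SE 0.40 and edgeR adjusted p = 0.187). Whether reads of the introduced gene are counted under this symbol is not given in the sources used here. The number that rose was 6 or 7 without any 1 of Rebound 49059, 49692 and 49849 or of the Endpoint libraries other than 49843, and 2 without the 5 libraries with T cell markers.

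**Figure D3:**
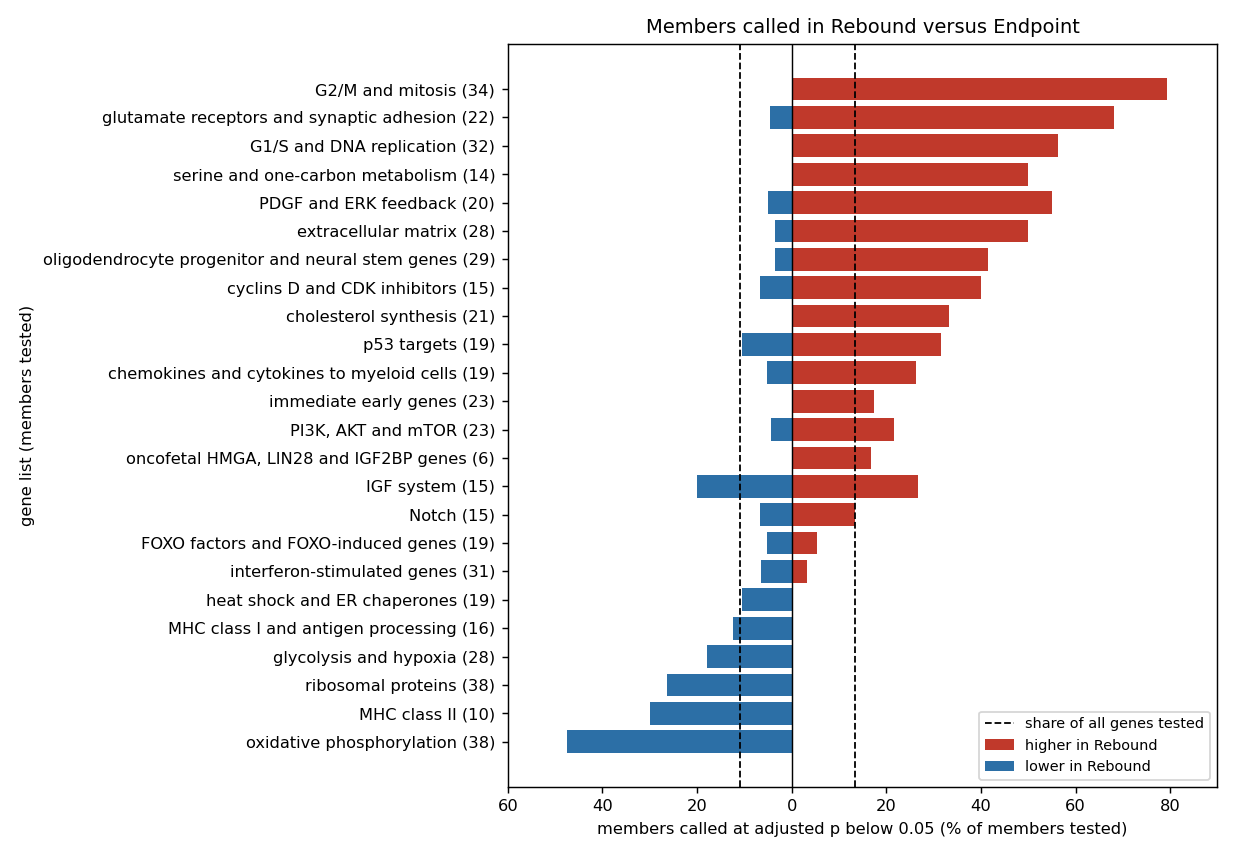
Share of tested members of 24 gene lists called higher (red, right) or lower (blue, left) in Rebound than in Endpoint at an adjusted p below 0.05; the number tested is beside each name and the dashed lines mark the shares of all genes, 13.3% and 10.9%. With TMM scaling mitosis genes have 27 of 34 members higher, and oxidative phosphorylation has 18 of 38 lower. Under the tumour cell marker scaling, not plotted here, none of the 34 mitosis genes is higher and 12 are lower, against 0.167% and 90% of all genes.

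Cell cycle genes were among the lists with the most members higher in Rebound, 27 of 34 for mitosis and 18 of 32 for replication. In mammals, genes of mitosis are held down outside the cycle through a promoter element called CHR, often beside CCAAT boxes, and genes of DNA replication through E2F sites. The 250 bases before the RefSeq start (GRCm38.p6) of 3 mitosis genes that rose and hold both CHR and CCAAT letters are printed first, followed by those of 2 replication genes that rose and hold E2F letters, so that the elements can be seen beside the values. Capitals mark matches on either strand. CHR was searched as TTTGAA and E2F as TTCCCGC in its first form, TTGGCGC in its second, then TTGCCGC and lastly TTCGCGC. In Prim1 the E2F and CCAAT letters overlap. Ncapg lies at chr5:45669675-45669924 (plus strand), Kif11 at chr19:37376132-37376381 (plus strand), Top2a at chr11:99024190-99024439 (minus strand), Cdc6 at chr11:98907901-98908150 (plus strand) and Prim1 at chr10:128014965-128015214 (plus strand).
Ncapg: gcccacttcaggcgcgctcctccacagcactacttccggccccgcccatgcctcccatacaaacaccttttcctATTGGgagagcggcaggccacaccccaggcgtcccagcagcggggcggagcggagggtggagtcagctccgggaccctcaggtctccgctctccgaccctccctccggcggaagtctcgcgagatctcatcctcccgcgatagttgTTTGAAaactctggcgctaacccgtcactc
Kif11: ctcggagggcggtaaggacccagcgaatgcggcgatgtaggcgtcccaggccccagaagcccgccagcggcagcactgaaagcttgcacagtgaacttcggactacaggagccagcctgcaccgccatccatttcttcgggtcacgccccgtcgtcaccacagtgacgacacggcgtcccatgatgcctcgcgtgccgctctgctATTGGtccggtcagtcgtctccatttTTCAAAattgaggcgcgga
Top2a: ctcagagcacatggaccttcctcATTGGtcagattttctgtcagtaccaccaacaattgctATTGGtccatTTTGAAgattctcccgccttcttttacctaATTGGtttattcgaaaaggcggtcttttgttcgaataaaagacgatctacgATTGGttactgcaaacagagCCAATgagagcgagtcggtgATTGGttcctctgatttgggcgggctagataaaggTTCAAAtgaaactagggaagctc
Cdc6: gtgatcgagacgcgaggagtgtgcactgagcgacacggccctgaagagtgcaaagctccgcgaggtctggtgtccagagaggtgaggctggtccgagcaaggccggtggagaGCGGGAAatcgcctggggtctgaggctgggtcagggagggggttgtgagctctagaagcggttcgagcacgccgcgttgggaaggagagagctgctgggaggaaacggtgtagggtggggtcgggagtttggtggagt
Prim1: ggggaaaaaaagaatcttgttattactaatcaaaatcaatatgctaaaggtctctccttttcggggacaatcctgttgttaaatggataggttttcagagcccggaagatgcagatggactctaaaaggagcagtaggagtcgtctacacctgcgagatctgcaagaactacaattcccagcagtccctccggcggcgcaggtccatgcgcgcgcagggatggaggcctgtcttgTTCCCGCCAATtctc

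The CHR nearest the start began 30 bases before it in Ncapg, 19 in Kif11 and 23 in Top2a. In the windows of 250 bases, CHR letters were in 35.7% of the 28 mitosis genes with a window and in 15.4% of the 26 replication genes, against 16.3% of all 27025 genes. CCAAT was in 78.6% of mitosis genes and 65.4% of replication genes, against 34.5% of all genes. E2F letters were in 14.3% of mitosis genes and 50% of replication genes, against 7.97% of all genes. In windows of 300 bases, which reach 50 bases past the start, CHR letters were in 67.9% of mitosis genes, 15.4% of replication genes and 18.1% of all genes. Motifs overlapped in 2 mitosis and 4 replication windows of 250 bases.

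Of 34 genes of G2/M and mitosis, 27 rose and none fell in Rebound, with a median log2 fold change of 2.44. Mki67, the proliferation antigen, at chromosome 7, 135689784 to 135716361, had 292, 321, 405, 107 and 442 CPM in Rebound, and between 18.4 and 162 CPM with a median of 53.3 CPM in Endpoint libraries (log2 fold change 2.09 with SE 0.54 and edgeR adjusted p = 0.019). Top2a, the topoisomerase that untangles replicated DNA, had 530.5, 698, 782, 163 and 601 CPM in Rebound, and between 20.9 and 278 CPM with a median of 79.1 CPM in Endpoint libraries (log2 fold change 2.26 with SE 0.58 and edgeR adjusted p = 0.0183). In both genes Rebound 49827 was the low Rebound library and lay among the Endpoint values, and Endpoint 49843 was the high Endpoint library. Ncaph, a condensin subunit, had 94.9, 87.3, 97.3, 27.5 and 96.9 CPM in Rebound, and between 9.09 and 26.8 CPM with a median of 13.6 CPM in Endpoint libraries, with no overlap (log2 fold change 2.39 with SE 0.38 and edgeR adjusted p = 0.00344). Of the other genes with a printed promoter, Ncapg, also a condensin subunit, rose by 2.50 with no overlap and Kif11, the kinesin that parts the spindle poles, by 2.75. Aurka, a kinase of the spindle poles (log2 fold change 2.90, edgeR adjusted p = 0.00619), and Prc1, which bundles the central spindle (log2 fold change 2.66, edgeR adjusted p = 0.00692), also rose. The number that rose was 17, 13 and 14 without Rebound 49059, 49692 and 49849. It was 34 without both libraries that stood apart, where 3005 of all 14565 genes rose. It was 4 without the 5 libraries with T cell markers, where 767 of all 14750 genes rose.

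Of 32 genes of G1/S and DNA replication, 18 rose and none fell, with a median of 1.32. Mcm2, a subunit of the replicative helicase, had 82.6, 102, 116, 63.2 and 179.8 CPM in Rebound, and between 9.22 and 64.6 CPM with a median of 24.9 CPM in Endpoint libraries (log2 fold change 1.87 with SE 0.44 and edgeR adjusted p = 0.013). Cdc6, which loads the helicase (log2 fold change 1.98, edgeR adjusted p = 0.0109), and Prim1, the primase (log2 fold change 1.35, edgeR adjusted p = 0.0138), rose with it. The number was 8, 7 and 6 without Rebound 49059, 49692 and 49849, and 10 without Endpoint 49825, 49830 or 49831. It was 25 without both libraries that stood apart, where 3005 of all 14565 genes rose. It was 2 without the 5 libraries with T cell markers, where 767 of all 14750 genes rose.

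The mitosis list had its highest levels in the 4 Rebound libraries other than 49827, which also had the highest tumour cell marker levels. Its level was 6.44, 6.63, 6.82, 4.28 and 6.73 in Rebound libraries, and 2.51 to 5.28 in Endpoint libraries, highest in Endpoint 49843. Set against the tumour cell markers of the same library, the mitosis level was lower by 1.71 to 3.01 (log2) in Rebound and by 0.163 to 2.20 in Endpoint libraries. Rebound 49827, which carried T and NK cell markers, was at -3.01 on this scale, the most negative of the 11 libraries, and the other 4 Rebound libraries lay between -2.19 and -1.71. The Endpoint libraries with T and NK cell markers, 49823, 49825, 49830 and 49831, were at -0.163, -0.911, -1.45 and -1.05, the least negative of the 11. Endpoint 49843 and 49845, without those markers, were at -2.20 and -1.69, near the Rebound values. The part of other dividing cells in these values was not tested.

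**Figure D4:**
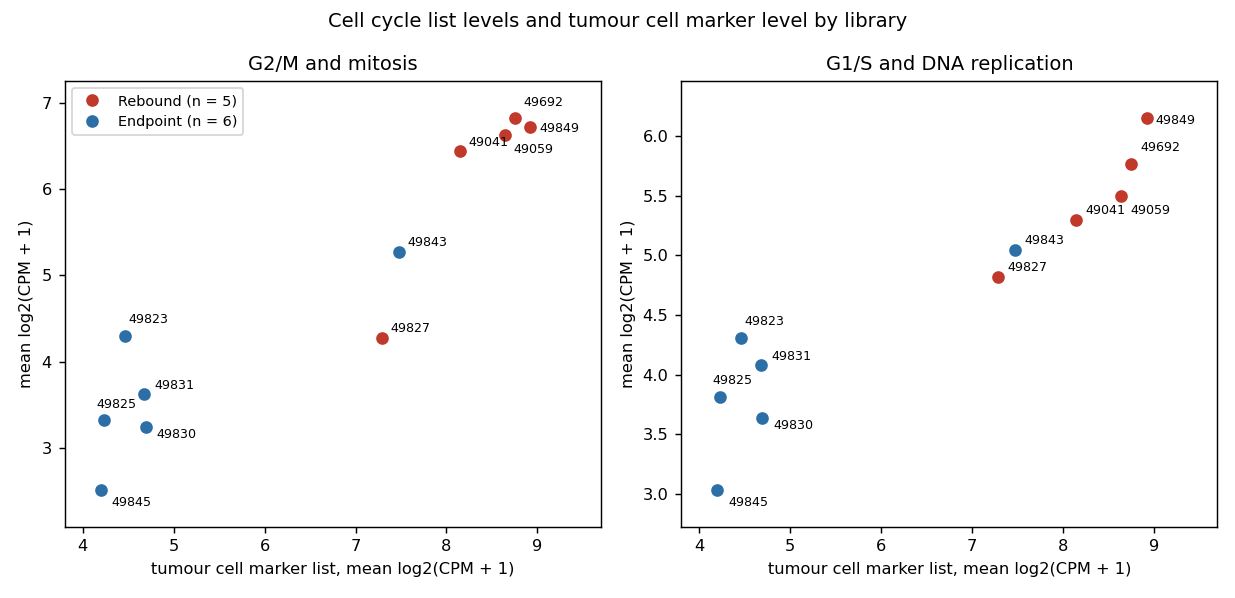
Level of the G2/M list (left panel) and the G1/S list (right panel) against the level of the tumour cell marker list, both as mean log2(CPM + 1), with one point per library labelled by mouse (Rebound red, Endpoint blue). Rebound 49827 and Endpoint 49843 lie beside each other in tumour cell markers, at 7.29 and 7.47, with G2/M levels of 4.28 and 5.28.

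Among D cyclins, their kinases and CDK inhibitors, 6 of 15 genes rose and 1 fell. Ccnd2, a cyclin that opens G1, had 518, 2242, 2587, 1441 and 1296 CPM in Rebound, and between 147 and 532 CPM with a median of 421 CPM in Endpoint libraries (log2 fold change 2.06 with SE 0.40 and edgeR adjusted p = 0.00683), and the kinase Cdk4 rose by 1.38 (edgeR adjusted p = 0.00779). Ccnd1 differed more widely within Rebound, at 167, 2608, 1803, 614 and 1541 CPM, against 23.3 to 300.4 CPM in Endpoint libraries (log2 fold change 4.20 with SE 0.93 and edgeR adjusted p = 0.0112). An inhibitor rose beside these cyclins: Cdkn2b (p15) had 35.5, 98.7, 102, 21 and 38.3 CPM in Rebound, and between 2.56 and 5.81 CPM with a median of 5.04 CPM in Endpoint libraries, with no overlap (log2 fold change 3.62 with SE 0.44 and edgeR adjusted p = 0.00193). Cdkn1c, the imprinted inhibitor p57, fell, with 11.8, 1.53, 1.07, 7.71 and 3.36 CPM in Rebound, and between 37.9 and 270.1 CPM with a median of 60.03 CPM in Endpoint libraries (log2 fold change -4.17 with SE 0.80 and edgeR adjusted p = 0.00652); its highest value was in Endpoint 49845, the library with the highest level of choroid plexus markers. Cdkn1a, the inhibitor p21, was at 22 to 79.9 CPM in Rebound and 11 to 33.8 CPM in Endpoint and did not pass (log2 fold change 1.09 with SE 0.38 and edgeR adjusted p = 0.0575).

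Of 19 targets of p53, 6 rose (31.6%, against 13.3% of all genes) and 2 fell (10.5%, near the 10.9% of all genes), with a median of 0.141. Zmat3, an RNA-binding target, had 79.6, 58.3, 70.9, 54.8 and 86.3 CPM in Rebound, and between 22.5 and 49.7 CPM with a median of 26.1 CPM in Endpoint libraries, with no overlap (log2 fold change 1.19 with SE 0.24 and edgeR adjusted p = 0.00798). Eda2r, a receptor of the TNF family, rose by 4.25 (edgeR adjusted p = 0.00721). The 2 that fell were Ccng1, cyclin G1 (log2 fold change -1.33, edgeR adjusted p = 0.0154), and Perp, a membrane protein of desmosomes (log2 fold change -5.03, edgeR adjusted p = 0.0114), both highest in Endpoint 49845. Without Rebound 49692, 3 rose.

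Matrix genes rose, with the highest values in Rebound 49041 for the 4 named here. Of 28 genes of the extracellular matrix, 14 rose and 1 fell, the link protein Hapln1 (log2 fold change -3.59, edgeR adjusted p = 0.0376), with a median of 2.63. Leaving out each library in turn gave 10 to 20 that rose, and Hapln1 kept its call in 3 of the 11 such fits. Lama4, a laminin chain of vessel walls, had 221, 217, 192, 20.3 and 147 CPM in Rebound, and between 2.69 and 15 CPM with a median of 8.19 CPM in Endpoint libraries (log2 fold change 4.27 with SE 0.60 and edgeR adjusted p = 0.00233). Lamc1, a laminin gamma chain, and Col4a1, a collagen of basement membranes, did not overlap between groups either, with log2 fold changes of 2.28 and 4.55. Postn, periostin, had 693, 173, 152, 11.6 and 81.6 CPM in Rebound, and between 2.68 and 19.6 CPM with a median of 7.92 CPM in Endpoint libraries (log2 fold change 4.66 with SE 0.89 and edgeR adjusted p = 0.00667). Rebound 49827 was the lowest Rebound library in each of them and lay among the Endpoint values for Postn.

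Markers of pericytes and fibroblasts, which share 3 genes with the matrix list, had 5 of 9 members higher and none lower. Their list level was 7.58, 6.86, 5.58, 3.52 and 5.22 in Rebound, and 3.78 to 4.79 in Endpoint libraries. Col3a1, a collagen of fibroblasts, had 2509.6, 783, 461, 25.7 and 285 CPM in Rebound, and between 31.6 and 108 CPM with a median of 66.2 CPM in Endpoint libraries (log2 fold change 3.68 with SE 0.84 and edgeR adjusted p = 0.0125). Lum, the proteoglycan lumican, had 1596, 652, 533, 11.6 and 227 CPM in Rebound, and between 15 and 53.3 CPM with a median of 25.3 CPM in Endpoint libraries (log2 fold change 4.45 with SE 0.88 and edgeR adjusted p = 0.00742). In both genes Rebound 49041 was the highest Rebound library and Rebound 49827 the lowest, below every Endpoint library. Pdgfrb, the PDGF receptor of pericytes, rose by 2.73 (edgeR adjusted p = 0.0129). Rgs5, a pericyte gene, had 5.52, 164, 0.644, 5.25 and 0.868 CPM in Rebound, against 0.513 to 2.69 CPM in Endpoint libraries (log2 fold change 4.35, edgeR adjusted p = 0.0393), and lost its call without Rebound 49059 or any 1 Endpoint library. The number that rose was 3 without Rebound 49059 or any 1 of Endpoint 49823, 49825, 49831 and 49845, and 8 without Rebound 49827. The part of fibroblasts and pericytes in the matrix result was not tested.

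In the IGF system, 4 of 15 genes rose and 3 fell, with a median of -0.0999. Igf1r, the receptor of IGF1, at chromosome 7, 67952827 to 68233668, had 80.1, 72.6, 72.8, 43.8 and 66.9 CPM in Rebound, and between 25 and 41.5 CPM with a median of 27.5 CPM in Endpoint libraries, with no overlap (log2 fold change 1.18 with SE 0.21 and edgeR adjusted p = 0.00529). Its call held whichever library was left out. Igf1 itself had 10.02, 6.01, 1.82, 9.63 and 1.63 CPM in Rebound, and between 3.85 and 26.5 CPM with a median of 9.30 CPM in Endpoint libraries, and did not pass (log2 fold change -1.17 with SE 0.70 and edgeR adjusted p = 0.229). Igf2, the fetal ligand of the same receptor, fell, with 28.1, 10.6, 3.43, 20.1 and 6.07 CPM in Rebound, and between 47.2 and 1047 CPM with a median of 201 CPM in Endpoint libraries (log2 fold change -4.59 with SE 0.86 and edgeR adjusted p = 0.00634). Igf2 was highest in Endpoint 49845, the library with the highest level of choroid plexus markers. The part of those cells in the Igf2 result was not tested. Proteins that bind IGFs outside the cell moved both ways. Igfbp3 rose, at 37.4, 194, 221, 32.6 and 409.7 CPM in Rebound, and between 1.03 and 16.9 CPM with a median of 3.45 CPM in Endpoint libraries (log2 fold change 4.66 with SE 0.96 and edgeR adjusted p = 0.00882). Igfbp6, which binds IGF2 more tightly than IGF1, fell (log2 fold change -3.75, edgeR adjusted p = 0.00316), and so did Igfbp2 (log2 fold change -1.67, edgeR adjusted p = 0.0411). The other members that rose were Insr, the insulin receptor (log2 fold change 0.86, edgeR adjusted p = 0.0284), and Irs1, an adaptor of both receptors (log2 fold change 1.98, edgeR adjusted p = 0.0182).

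Among 23 components of PI3K, AKT and mTOR signalling 5 rose and 1 fell, with a median of 0.487. Pik3r1 and Pik3r2, regulatory subunits of PI3K, both rose. Pik3r1 had 139, 271, 246, 157 and 239 CPM in Rebound, and between 105 and 136 CPM with a median of 123 CPM in Endpoint libraries, with no overlap (log2 fold change 0.78 with SE 0.20 and edgeR adjusted p = 0.0179), and lost its call without Rebound 49059 or 49692. Pik3r2 had 79.4, 73.3, 85.5, 36.6 and 73 CPM in Rebound, and between 12.3 and 48.6 CPM with a median of 19.9 CPM in Endpoint libraries (log2 fold change 1.51 with SE 0.35 and edgeR adjusted p = 0.0117). Phlpp1, a phosphatase that switches AKT off, rose by 1.08 (edgeR adjusted p = 0.0141). Pdk1, which as a mouse symbol names the kinase of pyruvate dehydrogenase and not the AKT kinase Pdpk1, fell (log2 fold change -2.04, edgeR adjusted p = 0.00769). The number that rose was 2 without Rebound 49059 or 49692, 3 without Rebound 49849 or Endpoint 49825 or 49831, and 8, with 5 lower, without Rebound 49827. Scaling on library size alone gave 11 higher.

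FOXO factors, which AKT holds out of the nucleus, and the genes they induce had 1 of 19 members higher and 1 lower. Each is 5.26%, below the 13.3% higher and 10.9% lower of all genes. Trib1, a pseudokinase, rose, at 62.3, 116, 32.3, 19.1 and 59.8 CPM in Rebound, and between 4.23 and 17.4 CPM with a median of 11.5 CPM in Endpoint libraries (log2 fold change 2.38 with SE 0.47 and edgeR adjusted p = 0.00686). Foxo1 fell, at 23, 15.7, 12.3, 36.4 and 13.3 CPM in Rebound, and between 35.5 and 81.9 CPM with a median of 49.3 CPM in Endpoint libraries (log2 fold change -1.40 with SE 0.34 and edgeR adjusted p = 0.0153). Without Rebound 49827, 4 fell, and 2 fell without Rebound 49041 or Endpoint 49843 or 49845; 2 rose without Rebound 49849 or Endpoint 49843. In the Notch pathway 2 of 15 genes rose (13.3%, the share of all genes) and 1 fell (6.67%, against 10.9% of all genes). Those that rose were the receptor Notch1 (log2 fold change 1.70, edgeR adjusted p = 0.0143) and the ligand Jag1 (log2 fold change 2.58, edgeR adjusted p = 0.00976). The receptor Notch2 fell (log2 fold change -2.34, edgeR adjusted p = 0.00649). Notch2 belonged to the macrophage class in the vehicle mice. Without Endpoint 49843, 4 Notch pathway genes rose, and without Rebound 49827, 2 fell.

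Biosynthetic genes rose in part. Of 14 genes of serine and one-carbon metabolism, 7 rose and none fell. Slc1a4, a transporter of serine and other neutral amino acids, had 37.5, 82.5, 89.6, 25.9 and 82.5 CPM in Rebound, and between 5.28 and 23.6 CPM with a median of 12.5 CPM in Endpoint libraries, with no overlap (log2 fold change 2.19 with SE 0.43 and edgeR adjusted p = 0.00683). Asns, asparagine synthetase (log2 fold change 1.87, edgeR adjusted p = 0.0121), Shmt1, which moves a carbon from serine to folate (log2 fold change 1.94, edgeR adjusted p = 0.015), and Aldh1l2, a mitochondrial folate enzyme (log2 fold change 3.71, edgeR adjusted p = 0.00933), rose too. Phgdh, the first enzyme of serine synthesis, was at 61.7 to 89.3 CPM in Rebound and 37.7 to 118 CPM in Endpoint and did not pass (edgeR adjusted p = 0.949). In cholesterol synthesis 7 of 21 rose and none fell. Dhcr7, which completes the sterol, had 138, 205, 197, 65.7 and 203 CPM in Rebound, and between 47.2 and 84.9 CPM with a median of 68.1 CPM in Endpoint libraries (log2 fold change 1.3 with SE 0.29 and edgeR adjusted p = 0.0107). Hmgcs1, an early enzyme of the pathway, and Cyp51, a later one, rose by 0.76 and 1.24 on the log2 scale, and both of these lost their call without Rebound 49059. The number was 2 without Rebound 49059 and 4 without Endpoint 49823 or 49825.

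Subunits of oxidative phosphorylation were lower in Rebound: 18 of 38 fell and none rose, with a median of -0.739. Cox4i1, a subunit of cytochrome c oxidase, had 459, 436, 485, 954 and 475 CPM in Rebound, and between 1082 and 2436 CPM with a median of 1251 CPM in Endpoint libraries, with no overlap (log2 fold change -1.35 with SE 0.29 and edgeR adjusted p = 0.00936). Ndufa1, of complex I, had 63.6, 71.6, 77.7, 104 and 73 CPM in Rebound, and between 162 and 667 CPM with a median of 209 CPM in Endpoint libraries (log2 fold change -1.86 with SE 0.38 and edgeR adjusted p = 0.00753). Ndufb9 and Cox6a1 changed by -1.13 and -1.19 on the log2 scale. The list level was 7.08 to 7.51 in Rebound and 7.74 to 8.98 in Endpoint libraries, and Endpoint 49845, with choroid plexus markers at 8.07, was the highest; the part of those cells in the result was not tested. The number that fell was 9 without Rebound 49041 or 49059 and 8 without Rebound 49692, and 17 without the 5 libraries with T cell markers.

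In glycolysis and hypoxia 5 of 28 genes fell and none rose. Aldoa, the aldolase of glycolysis, had 529, 755, 668, 864 and 445 CPM in Rebound, and between 1159.9 and 2988 CPM with a median of 1292 CPM in Endpoint libraries, with no overlap (log2 fold change -1.30 with SE 0.30 and edgeR adjusted p = 0.0117). Ndrg1, a hypoxia-induced gene that myelinating glia also express, had 16.6, 7.30, 2.47, 76.7 and 2.60 CPM in Rebound, and between 109 and 261 CPM with a median of 185 CPM in Endpoint libraries (log2 fold change -3.13 with SE 0.87 and edgeR adjusted p = 0.0252), and lost its call without Rebound 49041 or 49059. The glucose transporter Slc2a1 fell by 1.33 on the log2 scale (edgeR adjusted p = 0.031), a call lost without any 1 of Rebound 49059, 49692 and 49849 and Endpoint 49823 and 49825. The number was 3 without Rebound 49041, 49692 or 49849, 2 without Rebound 49059 and 8 without Rebound 49827 or Endpoint 49843.

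Ribosomal protein genes had 10 of 38 members lower and none higher, with a median of -0.596. Rps24, for example, had 91.2, 104, 107, 246 and 117 CPM in Rebound, and between 149.8 and 367 CPM with a median of 278 CPM in Endpoint libraries (log2 fold change -1.03 with SE 0.31 and edgeR adjusted p = 0.0305). This count was 0 with library size scaling and 0 without any 1 of Rebound 49041, 49059, 49692 and 49849 or Endpoint 49830, and it was 1 to 4 without Endpoint 49823, 49825 or 49831. It was 25 without Rebound 49827 and 21 without Endpoint 49845. Of 19 heat shock and ER chaperone genes 2 fell (10.5%, near the 10.9% of all genes) and none rose. The 2 were the chaperone Hspb1 (log2 fold change -2.34, edgeR adjusted p = 0.0119) and the stress factor Ddit3 (log2 fold change -1.23, edgeR adjusted p = 0.0435), whose call was lost in 8 of the 11 fits that left out a library. Without Endpoint 49843, 3 of these genes fell and 2 rose.

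Of the 12 largest decreases in Rebound among called genes with a mean of at least 50 CPM in the higher group and groups that did not overlap, 6 were in listed markers of the choroid plexus, the epithelium that makes cerebrospinal fluid. Of 15 tested markers of choroid plexus and ependyma, 12 fell and none rose, with a median log2 fold change of -6.52. Ttr, the thyroid hormone carrier transthyretin, had 887, 78.9, 0.429, 1057 and 1.63 CPM in Rebound, and between 5917 and 203073 CPM with a median of 32107 CPM in Endpoint libraries (log2 fold change -7.24 with SE 1.96 and edgeR adjusted p = 0.023). The groups did not overlap, yet Ttr varied widely within Rebound, and its call was lost without Rebound 49059. Folr1, the folate receptor of that epithelium, had 9.25, 0.236, 0, 11.2 and 0 CPM in Rebound, and between 90.2 and 1950.4 CPM with a median of 306 CPM in Endpoint libraries (log2 fold change -7.14 with SE 1.73 and edgeR adjusted p = 0.0153). Calml4, Sostdc1, Kcne2 and Otx2 changed by -7.01, -6.91, -6.75 and -6.63 on the log2 scale. The other 6 of these 12, off the list, were Defb11, a defensin (-7.67), Mia1 (-7.28), Krt18, an epithelial keratin (-7.08), Cox8b (-6.90), 1110059M19Rik (-6.90) and 1500015O10Rik (-6.79). All 12 were highest in Endpoint 49845 and, among Endpoint libraries, lowest in 49843.

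The decreases with the smallest p-values had another order across libraries. Gpc3, a glypican, at chromosome X, 52272426 to 52613950, had 5.78, 2.36, 2.90, 5.78 and 1.74 CPM in Rebound, and between 48.6 and 144 CPM with a median of 86.1 CPM in Endpoint libraries (log2 fold change -4.69 with SE 0.44 and edgeR adjusted p = 0.00127). Wfdc1, a secreted protein of the whey acidic protein family, had 1.16, 0.353, 0.536, 1.05 and 0.217 CPM in Rebound, and between 24.1 and 80.7 CPM with a median of 30.3 CPM in Endpoint libraries (log2 fold change -5.81 with SE 0.58 and edgeR adjusted p = 0.00127). Gpc3, Wfdc1, the carbonic anhydrase Car13 (-4.57) and the cortexin Ctxn3 (-4.42) were all highest in Endpoint 49830. Slc16a9, a carrier of carnitine and related acids, had 4.24, 1.65, 1.5, 3.15 and 3.04 CPM in Rebound, and between 36.9 and 137 CPM with a median of 67.9 CPM in Endpoint libraries (log2 fold change -4.78 with SE 0.46 and edgeR adjusted p = 0.00127). Elf3, an epithelial transcription factor, had 0.128, 0, 0, 0 and 0 CPM in Rebound, and between 5.28 and 26.7 CPM with a median of 11.1 CPM in Endpoint libraries (log2 fold change -8.52 with SE 0.99 and edgeR adjusted p = 0.00193).

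Markers of astrocytes had 5 of 10 members lower and none higher, with a median of -1.87. Slc1a2, the astrocyte glutamate transporter, had 257, 216, 223, 1037 and 249 CPM in Rebound, and between 1100.0 and 1826 CPM with a median of 1324 CPM in Endpoint libraries (log2 fold change -1.82 with SE 0.43 and edgeR adjusted p = 0.0133), with Rebound 49827 just under the lowest Endpoint library. The gap junction genes Gja1 and Gjb6 changed by -1.91 and -3.98 and the receptor Fgfr3 by -2.14 on the log2 scale. Without Rebound 49827, 9 astrocyte markers and 8 of 9 neuron markers were lower. Of 10 endothelial markers 1 fell (10%, against 10.9% of all genes), the transporter Slco1a4 (log2 fold change -3.93, edgeR adjusted p = 0.0334). The number was 0 without any 1 of Rebound 49059, 49692 and 49849 and Endpoint 49823, 49825 and 49845, and 2 without Rebound 49827 or Endpoint 49843. Of 10 myelinating oligodendrocyte markers 1 rose (10%, against 13.3% of all genes), Cnp (log2 fold change 1.11, edgeR adjusted p = 0.0371). Cnp lost its call in 7 of the 11 fits that left out a library, and 4 of these markers fell without Rebound 49827. Of 2 red cell markers tested 1 fell, Alas2, the heme synthesis enzyme of red cells, at 5.27, 4.36, 4.40, 42.2 and 13.8 CPM in Rebound, and between 113 and 874 CPM with a median of 375 CPM in Endpoint libraries (log2 fold change -4.91 with SE 0.83 and edgeR adjusted p = 0.00469). The 1 neutrophil marker tested, Retnlg, was not called by edgeR or DESeq2 and did not reach an unadjusted p of 0.05, while limma voom with quality weights called it higher.

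Myeloid genes were lower in Rebound, and how many passed depended on Rebound 49827. Of 16 markers, 5 fell and none rose, with a median of -3.36. Without Rebound 49827, 16 fell, while 3, 2 and 2 did without Rebound 49059, 49692 and 49849. With all libraries, DESeq2 called 14 of the 16 lower and limma voom with quality weights all 16. Csf1r, the receptor that BLZ945 inhibits, had 13.4, 4.48, 5.47, 82.8 and 1.84 CPM in Rebound, and between 189.8 and 1401 CPM with a median of 299 CPM in Endpoint libraries, with no overlap (log2 fold change -4.54 with SE 1.08 and edgeR adjusted p = 0.0144). The microglial genes P2ry12 and Tmem119 changed by -3.45 and -2.16 on the log2 scale and lost their calls without Rebound 49692 or 49849, Tmem119 also without Rebound 49059. T and NK cell, B cell and dendritic cell markers had none of 11, 5 and 5 members called by edgeR, and 0, 1 and 1 at an unadjusted p below 0.05. DESeq2 called 0, 0 and 1 of them, and limma voom with quality weights 5, 5 and 4, all lower. Without Rebound 49827, edgeR called 11, 5 and 4, all lower.

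Few MHC class I and interferon genes were called by edgeR: 12.5% of MHC class I genes and 6.45% of interferon-stimulated genes fell, near or below the 10.9% of all genes. All the members that edgeR called lower belonged to the macrophage class. DESeq2 called 5 of 16 MHC class I, 4 of 31 interferon-stimulated and 3 of 10 MHC class II genes lower, against 2522 of all 14365. Limma voom with quality weights called 15, 22 and 9 of them lower, against 4072 of all 14365. Both tools called 1 interferon-stimulated gene higher. The median log2 fold changes of these 3 lists were -1.14, -1.16 and -1.76. MHC class II genes had 3 of 10 lower (30%, against 10.9% of all genes) and none higher: H2-DMa (log2 fold change -1.77, edgeR adjusted p = 0.0212), H2-DMb1 (log2 fold change -2.90, edgeR adjusted p = 0.0297) and H2-Ob (log2 fold change -4.76, edgeR adjusted p = 0.0342). MHC class I genes had 2 of 16 lower and none higher, Erap1, which trims peptides (log2 fold change -1.20, edgeR adjusted p = 0.0183), and Tapbp, which loads them (log2 fold change -1.55, edgeR adjusted p = 0.0433). Of 31 interferon-stimulated genes, the antiviral genes Rsad2 (log2 fold change -3.03, edgeR adjusted p = 0.0194) and Bst2 (log2 fold change -1.78, edgeR adjusted p = 0.0413) fell and Ifit2 rose, at 149, 85.9, 97.5, 85.1 and 99.5 CPM in Rebound, and between 9.92 and 59.9 CPM with a median of 43.9 CPM in Endpoint libraries (log2 fold change 1.40 with SE 0.36 and edgeR adjusted p = 0.0186). Without Rebound 49827 the numbers lower in these 3 lists were 8, 5 and 10, and each was 1 without Rebound 49041, 49692 or 49849. Of these genes, Erap1, Rsad2 and Ifit2 had their call whichever library was left out.

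Cytokines that act on myeloid cells had 5 of 19 members higher and 1 lower. Spp1, osteopontin, had 3352, 3280.3, 1300.0, 62.9 and 1205 CPM in Rebound, and between 30.3 and 367 CPM with a median of 86.6 CPM in Endpoint libraries (log2 fold change 3.89 with SE 0.93 and edgeR adjusted p = 0.0144). It belonged to the macrophage class in the vehicle mice. Of the Rebound libraries it was lowest in 49827, the one with the most myeloid marker RNA. The part of macrophages in the Spp1 result was not tested. Il34, the second ligand of CSF-1R, had 96.7, 37.9, 32.2, 4.03 and 29 CPM in Rebound, and between 0.513 and 11.1 CPM with a median of 5.07 CPM in Endpoint libraries (log2 fold change 2.89 with SE 0.73 and edgeR adjusted p = 0.0168). Csf1, its other ligand, had 40.2, 99.3, 39, 18.9 and 37.4 CPM in Rebound, and between 7.44 and 37.1 CPM with a median of 9.57 CPM in Endpoint libraries (log2 fold change 1.61 with SE 0.52 and edgeR adjusted p = 0.0431), a call that held in 3 of the 11 fits that left out a library. Cx3cl1, the ligand of a microglial receptor, rose (log2 fold change 1.47, edgeR adjusted p = 0.0186), a call lost without Rebound 49059 or 49692. Cxcl16, a chemokine for T cells, fell (log2 fold change -3.44, edgeR adjusted p = 0.0116). The number that rose was 2 without Rebound 49059 or 49692 and 3 without Rebound 49041 or 49849 or Endpoint 49825, 49830, 49831 or 49845, and 6 fell without Rebound 49827.

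Of 23 immediate early genes, which respond to growth factors and also to tissue handling, 4 rose (17.4%, against 13.3% of all genes) and none fell. Fos, a subunit of AP-1, had 90.6, 229, 70.6, 21.9 and 59.7 CPM in Rebound, and between 2.98 and 32.3 CPM with a median of 4.15 CPM in Endpoint libraries (log2 fold change 3.32 with SE 0.78 and edgeR adjusted p = 0.0129). Nr4a1, a nuclear receptor, rose by 2.41 and lost its call without Rebound 49059, and Jun and Egr1 (2.15 and 2.62) lost theirs in 8 and 9 of the 11 fits that left out a library. Rebound 49059 had the highest list level, 4.18, and 1 gene rose without it. Without Rebound 49692 or 49849 or any 1 Endpoint library other than 49843, 2 rose, and 3 genes fell without Rebound 49827. Of 6 oncofetal genes 1 rose (16.7%, against 13.3% of all genes), Hmga2, an architectural protein of fetal and tumour cells. Hmga2 was at 15.3, 136, 129, 8.23 and 159 CPM in Rebound, and between 0 and 13.8 CPM with a median of 0.275 CPM in Endpoint libraries (log2 fold change 5.31 with SE 1.53 and edgeR adjusted p = 0.0285). Its call was lost without any 1 of Rebound 49059, 49692 and 49849 or Endpoint 49825 and 49830, and 2 oncofetal genes rose without Endpoint 49843.

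A second scaling set each library by the geometric mean of its counts of the 12 tumour cell markers, and so gives differences per unit of tumour cell marker RNA. It moved the median log2 fold change of all genes to -3.83, and 90.2% of the 14353 genes then tested passed. Only 24 (0.167%) were higher in Rebound and 12924 (90%) were lower. List medians turned with it: those of G2/M genes, progenitor genes, matrix genes, and glutamate and synapse genes were -1.31, -0.954, -1.23 and -1.17, each above the shift of -3.83 and each positive under TMM. None of the 34 G2/M genes was higher under this scaling and 12 were lower. Of the 24 genes that were higher, 13 were of the tumour cell class, 11 of neither class and none of the macrophage class. Their number was 39 without Rebound 49827 and 41 without Endpoint 49843.

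The 8 genes of the tumour cell class that rose per tumour cell marker with the smallest p were Lpo, Tnc, Spry4, Col19a1, Megf6, Hmga2, Hhipl2 and Sv2c. On this scale Lpo rose by 4.52 (edgeR adjusted p = 3.72e-04), Tnc by 3.25 (edgeR adjusted p = 0.00155) and Spry4 by 4.38 (edgeR adjusted p = 0.00225). Col19a1, a collagen gene, had 76.9, 281, 289.8, 66.4 and 259.7 CPM with TMM in Rebound, and between 0.298 and 58.9 CPM with a median of 0.573 CPM in Endpoint libraries, where the maximum was Endpoint 49843, and per tumour cell marker it rose by 2.54 (edgeR adjusted p = 0.00525). Genes of the tumour cell class with the smallest p in the other direction were Col12a1, Nxn, Sdpr, Tnfrsf11b, Scara3, Slc4a10, Stard10 and Ptges, with log2 changes between -7.53 for Slc4a10 and -5.28 for Ptges. Which cells of the sort carried these genes was not tested. Slc4a10, a bicarbonate transporter, had 74.9, 36.3, 32.8, 44.5 and 35.8 CPM with TMM in Rebound, and between 119.9 and 908 CPM with a median of 502 CPM in Endpoint libraries, and fell under both scalings (log2 fold change -3.52 with SE 0.46 and edgeR adjusted p = 0.00231 with TMM).

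**Figure D5:**
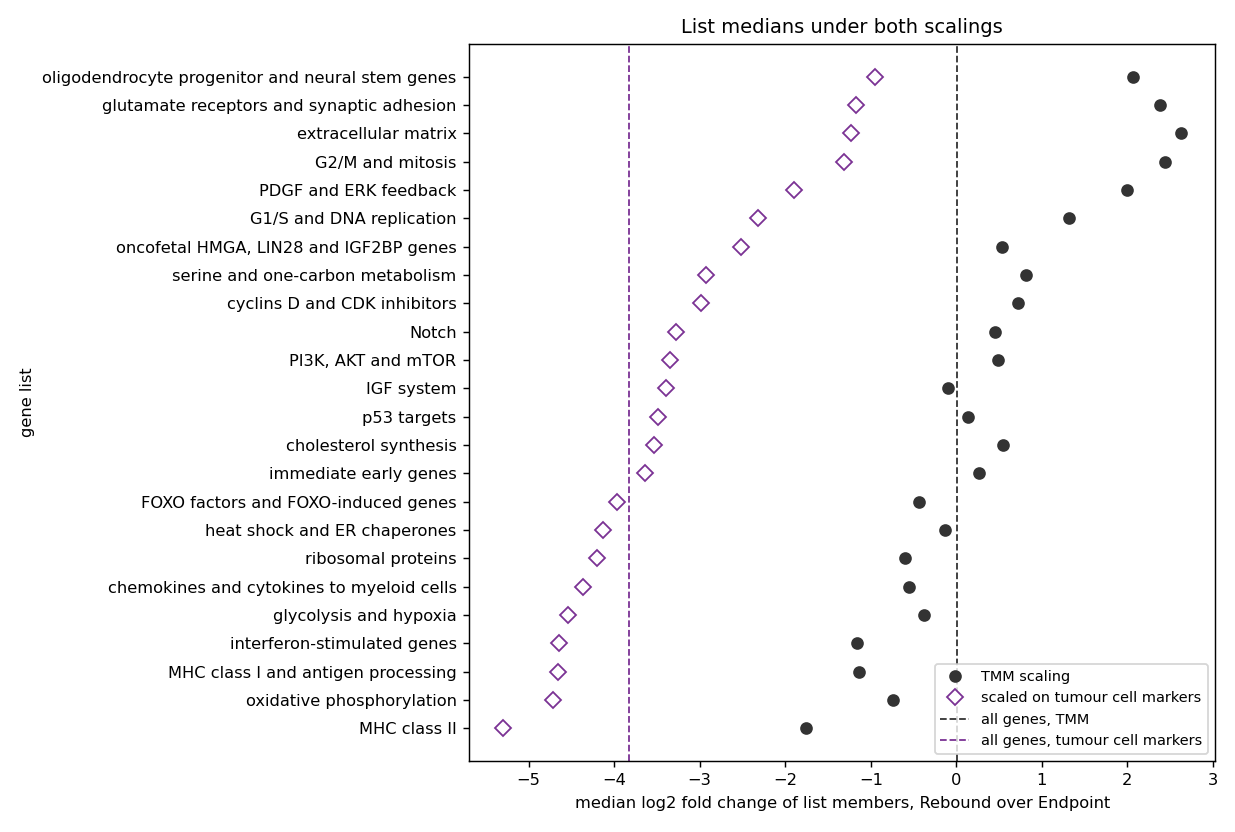
Median log2 fold change (Rebound over Endpoint) of 24 gene lists with TMM scaling (filled circles) and with scaling on 12 tumour cell markers (open diamonds); dashed lines are the medians of all genes, 0.0134 and -3.83. Under the marker scaling every list median is negative, with progenitor, glutamate, matrix and mitosis genes among those farthest above the line.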

How the data were processed

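RNA of PDGFRA+ sorted cells was sequenced in pairs of 50 bases after a SMART-Seq kit, per the labels' protocols. The deposited values are raw counts per gene symbol for 32 libraries (23337 symbols), aligned by the authors with STAR 2.3.0e to mm10, per the submitters' processing notes; neither the counting tool nor its annotation is given in the sources used here. Libraries were grouped by labelled cell type and stage, and replicates are mice, so p-values measure the spread between mice. Counts were used as deposited. In R 4.3.3, edgeR 4.0.16 filtered (filterByExpr), scaled (TMM) and fitted the 11 libraries alone with its robust quasi-likelihood test, with p-values adjusted by Benjamini and Hochberg over all genes tested; the same code was tested on simulated counts. Alternatives were DESeq2 1.42.0, limma 3.58.1 (voom with quality weights), other scalings and filters, all 16 tumour cell libraries, halved counts, and leaving out each library. The marker scaling used the geometric mean of count + 1. GENCODE M21 gave coordinates for 20953 symbols. Promoters are RefSeq windows (GRCm38.p6), the first listed for each gene.

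Named genes are the 12 largest changes in each direction (adjusted p below 0.05, a mean of at least 50 CPM in the higher group, groups that do not overlap), the 6 smallest p in each direction, up to 4 called members of each list with the smallest p, and the 8 smallest p in each direction per tumour cell marker; Pdgfra, Olig2, Csf1r, Ttr, Mki67, Top2a, Cdkn1a, Igf1r, Igf1, Egfr and Pdgfb were always named. The least significant member of each list is not named, and other list members appear as examples. Some genes that this rule selects are not reported here. The members and lists were chosen with earlier results of these data known. Of the neutrophil list 1 gene and of the erythroid list 2 genes were over the filter on low counts. Between 2 libraries of a group, chi-square divided by its degrees of freedom was at least 12.9, so none was counted as a duplicate.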

Additional observations from a re-analysis of the deposited data

Results flagged for a closer look

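Groups of 5 or 6 values were examined, Rebound and Endpoint apart. They were genes named by size of change, by p or always, and list levels. Of 166 such groups, 28 held a library far from the others of its group by Dixon's test. For a single group chance gives about 1 in 20, but the groups share the same 11 libraries and are not independent. Of the 28, Rebound 49827 accounts for 12, Endpoint 49843 for 6 and Endpoint 49845 for 6, and no cause was tested.

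In Rebound 49827, 5 genes were far below the other Rebound libraries: 4833424O15Rik at 37.1 CPM, Nfia at 470 CPM, Lphn3 at 65.5 CPM, Nxph1 at 56.9 CPM and Top2a at 163 CPM. Its list levels, in mean log2(CPM + 1), were the highest of Rebound for myeloid cells (6.99), T and NK cells (8.17), B cells (3.49), dendritic cells (2.90), neurons (4.39) and PI3K signalling (5.69), and the lowest for mitosis (4.28).

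Endpoint 49843 was the highest Endpoint library for Megf6 (16.9 CPM), Pdgfra (532 CPM) and Olig2 (30.8 CPM), and for the levels of the tumour cell markers (7.47), progenitor and stem genes (5.53) and glutamate receptors and synaptic adhesion (4.41). Endpoint 49845 was the lowest Endpoint library for D cyclins and CDK inhibitors (4.58), PI3K signalling (4.76) and immediate early genes (2.43). It was the highest for cholesterol synthesis (5.86), oxidative phosphorylation (8.98) and heat shock and ER chaperones (7.62).

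Wfdc1 was highest in Endpoint 49830, at 80.7 CPM, and Elf3 was highest of the Rebound libraries in Rebound 49041, at 0.128 CPM. The neuron level was highest of the Endpoint libraries in Endpoint 49831 (4.58), within a range that began at 4.25. The immediate early level was highest of the Rebound libraries in Rebound 49059 (4.18).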

How the results depend on the processing

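No paired analysis was possible because no mouse gave both a Rebound and an Endpoint tumour cell library. Against 3469 genes called (1905 higher, 1564 lower), leaving out each library in turn gave 1977 to 5464 called, 1147 to 2518 higher and 830 to 2946 lower. Voom with quality weights called 8321 (4249 higher, 4072 lower), DESeq2 called 2242 higher and 2522 lower, library size scaling 2951 higher and 1129 lower, and RLE scaling 1714 higher and 1743 lower. Without both Rebound 49827 and Endpoint 49843 there were 6226 (3005 higher, 3221 lower), and with the 5 libraries that carried T and NK cell markers left out 2052, of which 767 were higher. Per tumour cell marker, 24 genes were higher; the number was 18 to 41 with a library left out, 54 with all 16 tumour cell libraries in the fit, 15 with scaling on Olig1, Olig2 and Sox10, and 51 without both libraries that stood apart. The causes were not tested, beyond the smaller number of libraries where some were left out. Of 149 called genes that the naming rule selects, 119 were called with each library left out. The tumour cell marker scaling apart, no gene selected by that rule changed direction under any alternative run. Retnlg, named outside the rule, went from a log2 fold change of -0.256 to 1.05 without Endpoint 49843. Without the 5 libraries with T and NK cell markers 65 of the 149 genes called lost their call. List medians and level differences were recomputed with each library left out and with library size scaling: 858 of 888 values moved by less than 1 SD, and the medians of 5 lists (neutrophils, p53 targets, IGF system, immediate early genes, heat shock and ER chaperones) changed sign. Depth limits genes of low count: the shallowest Endpoint library held 4180176 counts.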
